A study of Mus musculus with 12 samples.

Results

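The genes described here encode 39 liver-made proteins of the complement and coagulation systems, out of 50559 genes in the files, and were chosen by name from a list of such factors. They divide into 8 genes of the lectin and classical pathways (C1ra, C1s1, C2, C4b, Masp1, Masp2, Mbl1, Mbl2), 2 of C3 and the alternative pathway (C3, Cfb), 5 of the terminal pathway (C6, C8a, C8b, C8g, C9) and 3 complement regulators (Cfi, C4bp, Serping1). The coagulation side holds 5 vitamin K-dependent or common-pathway genes (F2, F5, F7, F9, F10), 5 of the contact and kinin system (F11, F12, Klkb1, Kng1, Kng2), 4 of fibrinogen and factor XIII (Fga, Fgb, Fgg, F13b), 4 anticoagulants (Proc, Pros1, Serpinc1, Serpind1) and 3 of the plasminogen system (Plg, Serpinf2, Cpb2).

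Liver RNA of C57BL/6N mice was sequenced in 12 libraries, 3 for each of 4 groups. One group ate normal chow (NCD), and one a high-fat diet (HFD, 60% of energy from fat) for 12 weeks. The remaining groups, HFD+C1 and HFD+C2, ate the same high-fat diet and received compound C1 or compound C2 in the abdominal cavity at 5 mg/kg per day for 12 weeks. The series title calls both compounds CYP4A inhibitors. The labels give neither the sex nor the age of the mice, and do not say whether the NCD and HFD mice were injected with vehicle. If they were not, compound and injection cannot be told apart. Changes under a compound are therefore differences of its group from HFD. The complement gene C2 and compound C2 share only a name, and the gene is written below as "the C2 gene".

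Complement is a cascade of plasma proteins that marks particles for uptake and lyses membranes. Its lectin and classical arms start from pattern-binding proteins and their serine proteases, all arms meet at C3, and the terminal components assemble into a membrane pore. Coagulation is a parallel protease cascade that ends in thrombin cutting fibrinogen to fibrin, and is held in check by anticoagulant serpins, the protein C system and plasmin. Hepatocytes secrete most of these proteins, and several, fibrinogen among them, are acute-phase proteins whose genes respond to interleukin-6.

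Reads counted in genes ranged from 4281210 to 32124248 per library, and the 39 genes took 2.54% to 4.21% of them. The lowest count of any of the 39 genes in any library was 135, so that all 39 entered every test. NCD replicate 1 stood apart: it had the lowest value of its group for 33 of the 39 genes and the highest for the other 6. Its median deviation from the other NCD libraries was -0.82 on the log2 scale over the 39 genes, against -0.019 over all genes. It also had the largest share of reads assigned to no gene, 58.2%, and the lowest summed level of 8 hepatocyte markers, 34843 CPM (read counts scaled to a common library total) against 75458 and 76492 in the other NCD libraries. Without the albumin gene Alb the other 7 markers summed to 24039 CPM there, against 31220 and 33449, and the lowest of the 12 libraries was HFD+C2 replicate 1 at 22813. HFD+C2 replicate 1 had 47.1% unassigned reads, the remaining 10 libraries 27.3% to 40.7%, and 24 of the 39 genes were lowest of their group there. Defining hepatocyte markers such as Alb were present in every library. In whole liver RNA, fewer cells of a type and less RNA per cell cannot be told apart. Counts for the diet and for compound C2 are given with and without these libraries.

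The promoters of the 3 fibrinogen chain genes are shown because Fgg, Fga and Fgb lie beside each other and Fga has the highest diet change below. Each run covers 250 bases before to 50 bases after the RefSeq start (GRCm38.p6), read 5′ to 3′ along the gene. Capitals mark TTGCNNAA, a C/EBP-type motif, on either strand.
Fga, chr3:83025903-83026202, plus strand: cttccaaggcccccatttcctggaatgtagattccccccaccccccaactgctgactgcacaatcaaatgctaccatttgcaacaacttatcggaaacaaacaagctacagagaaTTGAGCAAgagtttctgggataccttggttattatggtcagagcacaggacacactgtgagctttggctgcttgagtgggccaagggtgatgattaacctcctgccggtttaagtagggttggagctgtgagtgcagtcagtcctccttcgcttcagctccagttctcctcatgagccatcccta
Fgb, chr3:83049814-83050113, minus strand: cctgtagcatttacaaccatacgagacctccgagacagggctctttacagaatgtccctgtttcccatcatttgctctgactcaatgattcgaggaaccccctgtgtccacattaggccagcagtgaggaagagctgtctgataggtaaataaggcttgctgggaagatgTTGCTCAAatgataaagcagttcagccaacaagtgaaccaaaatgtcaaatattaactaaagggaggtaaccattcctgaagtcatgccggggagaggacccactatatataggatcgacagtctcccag
Fgg, chr3:83007474-83007773, plus strand: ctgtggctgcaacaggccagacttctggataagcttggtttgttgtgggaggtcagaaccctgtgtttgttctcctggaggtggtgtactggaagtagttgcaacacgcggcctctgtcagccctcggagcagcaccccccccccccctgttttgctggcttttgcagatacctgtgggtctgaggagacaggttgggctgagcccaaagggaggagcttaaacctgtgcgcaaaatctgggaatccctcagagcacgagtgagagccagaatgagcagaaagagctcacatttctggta

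Fga and Fgb each hold the motif, and Fgg does not. RefSeq promoters were found for 30 of the 39 genes. TTGCNNAA was present in 12 of the 30 (40%) and in 10.8% of all 32851 promoters of the same length. CTGGGAA, the core of the type II interleukin-6 element, was present in 7 of the 30 (23.3%, against 11.1%), and TTCNNNGAA, a STAT-type motif whose letters can overlap it, also in 7 (23.3%, against 8.3%). CAAAGTCCA, an HNF4-type motif, was found in 0 of the 30 and in 0.475% of all promoters, and TATAAA in 2 of the 30 (6.67%, against 13.6%). All motifs were searched on both strands. A match is a run of letters and not a measured binding site.

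Levels below are CPM scaled by TMM, a factor that corrects for a few abundant genes taking reads from the rest. To set genes beside each other, levels were divided by transcript length. In HFD livers, 6 of the 39 genes were among the first 100 of 20838 genes by CPM per kb. The fibrinogen chains led with 1340 CPM per kb for Fgg, 1191 for Fgb and 1041 for Fga. Kng1, the kininogen from which bradykinin is cut, followed at 974, then C3, the hub of complement, at 887. F2, the prothrombin gene, reached 706 and Plg, the plasminogen gene, 692. The lowest were Masp1, a lectin-pathway protease, at 7.16 CPM per kb, the anticoagulant cofactor gene Pros1 at 10.3 and the C2 gene at 12.9. The ranges of the fibrinogen chains overlapped, although the order Fgg, Fgb, Fga held within each of the 3 HFD libraries, and the ranges of F2 and Plg overlapped too.

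**Figure D1:**
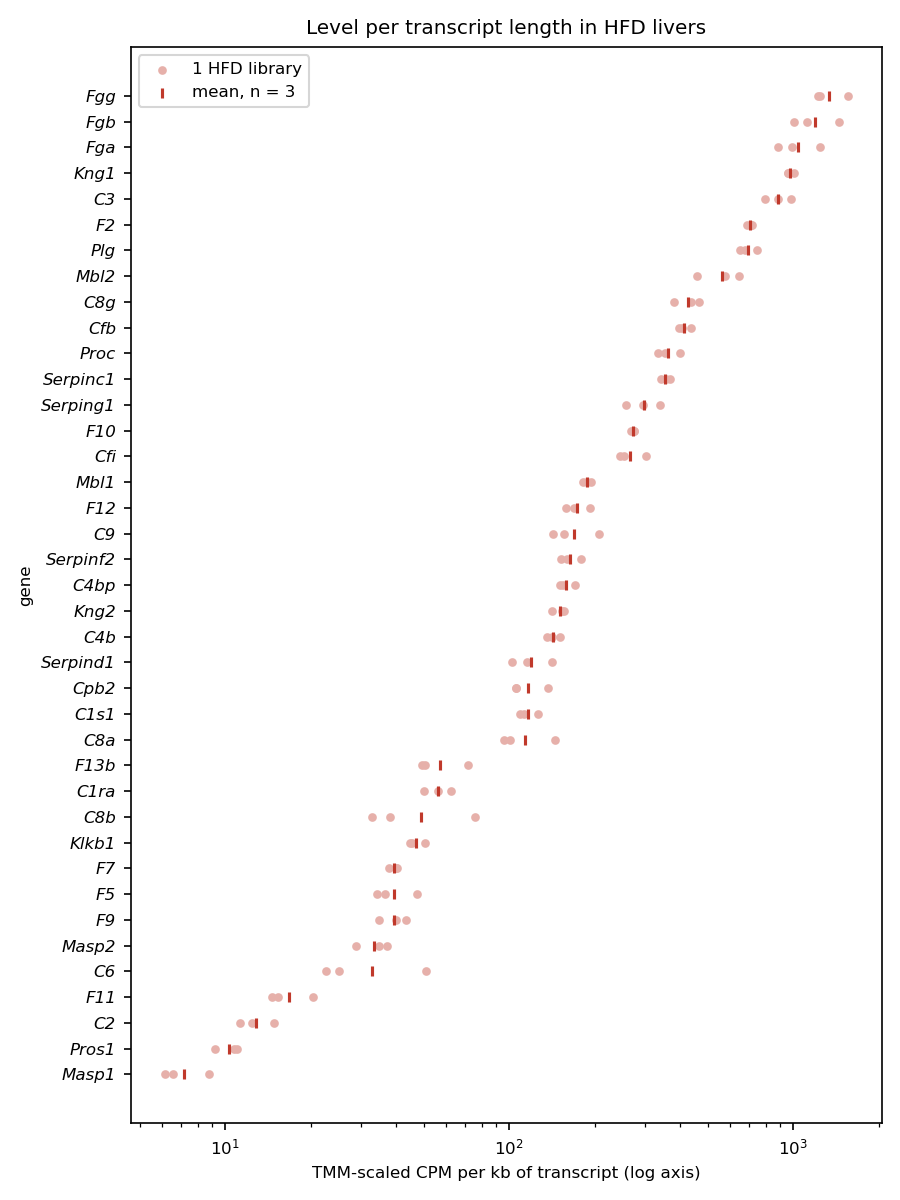
Level of each of the 39 genes in HFD livers, as TMM-scaled CPM per kb of transcript on a log axis; pale points are the 3 HFD libraries and red ticks their mean. The genes run from 7.16 CPM per kb for Masp1 to 1340 for Fgg, and neighbours in the order mostly overlap.

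**Figure D2:**
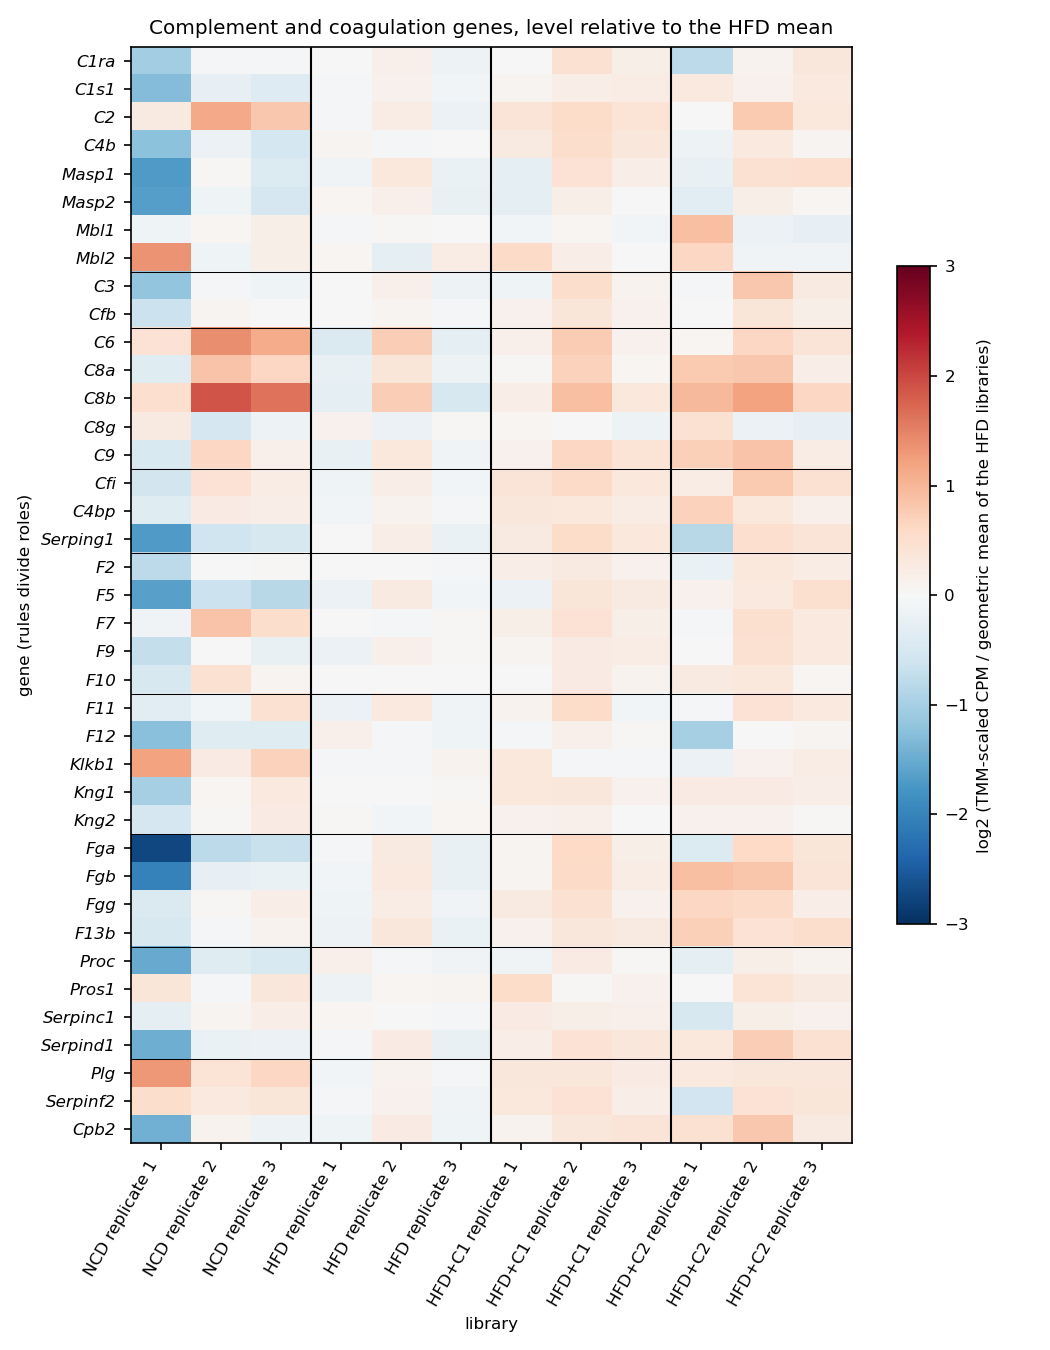
Log2 level of each gene (vertical axis, divided by role) in each of the 12 libraries (horizontal axis), relative to the geometric mean of the 3 HFD libraries. NCD replicate 1 is mostly blue, lowest of its group for 33 of 39 genes, and the compound columns are mostly red.

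The first comparison, HFD against NCD, asks what the diet did. The C8 beta chain gene C8b, the terminal component C6, Plg, the C2 gene and Klkb1 lay lower in HFD livers. Fga, the factor V gene F5 and Serping1 lay higher, but with all 6 libraries none of these genes passed the edgeR test. By edgeR with Benjamini-Hochberg adjustment over all genes, 0 of the 39 were called at an adjusted p under 0.05, where 6.03% of all 13864 genes were. At an unadjusted p under 0.05 there were 10 (5 higher, 5 lower), 25.6% of the genes against 28.9% of all genes. DESeq2 called 6 (F5, Serping1, the C2 gene, C8b, Klkb1 and Plg), where it called 16.6% of all genes, and limma 0, where it called 4.01%. Groups did not overlap for 11 genes, 28.2% against 37.1% of all genes; 7 were higher and 4 lower, against 18.2% and 18.9% of all genes. A change above 0 was found for 23 of the 39, 59% against 48.5% of all genes. The median log2 change was 0.12, against -0.022 for all genes.

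Leaving out HFD replicate 1, 2 or 3 also gave 0 of the 39 called, where 0.165%, 0.94% and 0.179% of all genes were. NCD replicate 1 was singled out partly by these genes' own values, so calls without it are not independent of that choice. Leaving out NCD replicate 1 changed the result: 9 of the 39 genes (23.1%) were then called, against 13.7% of all genes. Of these, 3 rose and 6 fell, where 7.34% and 6.37% of all genes did. At an unadjusted p under 0.05 there were 13 (33.3%, against 28.8% of all genes). Groups then did not overlap for 21 genes, 53.8% against 45.2% of all genes; 7 were higher and 14 lower, against 22.9% and 22.3% of all genes. A change above 0 was found for 17 of the 39 (43.6%, against 50% of all genes), and the median became -0.029, against -0.00039 for all genes. The direction of the median also turned, to -0.12, when libraries were scaled by their total counts, a scaling that moved the median of all genes from -0.022 to -0.24. The hepatocyte marker sum was 34843 to 76492 CPM in NCD and 89367 to 103817 in HFD, but only 3 of the 8 markers had a change above 0. Without Alb, the remaining 7 summed to 31220 and 33449 CPM in NCD replicates 2 and 3 and to 30818 to 35791 in HFD, which overlap. Stellate cell and fibroblast markers summed to 97.4 to 129 CPM in NCD and 145 to 160 in HFD. The part of either list in the differences was not tested.

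The terminal complement genes, whose products build the membrane pore, had a change below 0 in 4 of 5 cases. C8b measured 144, 381 and 315 CPM in NCD replicates 1, 2 and 3, and 85.3, 170 and 73.5 in HFD. The groups overlapped only because NCD replicate 1 lay below HFD replicate 2. The log2 change was -1.33 ± 0.42 (SE; 95% interval -2.29 to -0.38; edgeR adjusted p 0.0864), a level 2.52-fold lower, and without NCD replicate 1 C8b fell by 1.66 ± 0.27 (edgeR adjusted p 0.00148).

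C6, which joins the pore before C8, measured 119, 232 and 192 CPM in NCD and 65.0, 147 and 72.3 in HFD. Again HFD replicate 2 reached above NCD replicate 1, and the change of -0.92 ± 0.36 had an edgeR adjusted p of 0.141. Without NCD replicate 1, C6 fell by 1.16 ± 0.27 (edgeR adjusted p 0.0129). C8a, the alpha chain gene beside C8b, measured 314, 729 and 620 CPM in NCD and 348, 525 and 364 in HFD. Its change was -0.41 ± 0.32, and without NCD replicate 1 it fell by 0.70 ± 0.19 (edgeR adjusted p 0.0245). C8g, the gamma chain gene, and C9, which polymerises into the pore wall, were not called with or without NCD replicate 1, at 0.12 ± 0.23 and -0.13 ± 0.29 with all libraries and 0.32 ± 0.17 and -0.38 ± 0.19 without it.

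The lectin and classical genes had changes in both directions, 5 of 8 above 0. The C2 gene, which encodes the protease of the classical C3 convertase, measured 40.8, 74.0 and 59.0 CPM in NCD and 32.8, 39.4 and 29.9 in HFD. Every NCD library lay above every HFD library. Its change was -0.74 ± 0.24 (edgeR adjusted p 0.0933), and without NCD replicate 1 it fell by 0.95 ± 0.17 (edgeR adjusted p 0.00221). C4b, which encodes C4, the other part of that convertase, measured 325, 676 and 532 CPM in NCD and 812, 733 and 761 in HFD, without overlap. Its change of 0.61 ± 0.27, and of 0.35 ± 0.16 without NCD replicate 1, was not called either way. C3 measured 2000, 4418 and 4146 CPM in NCD and 4551, 5031 and 4088 in HFD, overlapping groups with a change of 0.39 ± 0.31, and of 0.09 ± 0.16 without NCD replicate 1. C4b, C1ra, C1s1, Kng1 and Kng2 have near-identical paralogs, and how counting split reads between copies is not given in the sources used here.

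Among regulators, Serping1, the C1 inhibitor that also restrains kallikrein, measured 162, 344 and 376 CPM in NCD and 522, 599 and 458 in HFD. The groups did not overlap. Its change was 0.86 ± 0.31 (edgeR adjusted p 0.117), and without NCD replicate 1 it rose by 0.55 ± 0.16 (edgeR adjusted p 0.0397). Cfi, the protease that cleaves C3b and C4b, lay at 379, 748 and 643 CPM in NCD and 509, 631 and 527 in HFD, a change of -0.07 ± 0.27. Without NCD replicate 1 its change was -0.32 ± 0.16, with groups that did not overlap, and was not called.

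In the common pathway, F5, the cofactor of the prothrombinase complex, had the smallest adjusted p of the 39 genes. It measured 94.0, 185 and 163 CPM in NCD and 255, 352 and 272 in HFD. All HFD libraries lay above all NCD libraries. The change was 1.01 ± 0.27, or 2.02-fold (edgeR adjusted p 0.0621), and without NCD replicate 1 F5 rose by 0.76 ± 0.18 (edgeR adjusted p 0.0122). F7, the initiator of the extrinsic pathway, went the other way: 68.6, 133 and 105 CPM in NCD against 74.4, 70.5 and 75.1 in HFD. With NCD replicate 1 its change was -0.46 ± 0.24, and without it F7 fell by 0.69 ± 0.15 (edgeR adjusted p 0.00946). F2 measured 819, 1395 and 1441 CPM in NCD and 1426, 1413 and 1374 in HFD, a change of 0.22 ± 0.25 that was not called and was -0.01 ± 0.15 without NCD replicate 1.

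The fibrinogen chains, whose proteins assemble in equal numbers, gave separate values. Fga measured 400, 1556 and 1678 CPM in NCD and 2571, 3226 and 2281 in HFD, without overlap. Its change was 1.17 ± 0.47, or 2.25-fold (edgeR adjusted p 0.147), and without NCD replicate 1 Fga rose by 0.74 ± 0.18 (edgeR adjusted p 0.0142). Fgb measured 1102, 3770 and 3913 CPM in NCD and 4270, 5517 and 3827 in HFD, where the lowest HFD library lay under the highest NCD library. Its change was 0.65 ± 0.43, and 0.24 ± 0.18 without NCD replicate 1. Fgg, at 1725, 2390 and 2653 CPM against 2125, 2714 and 2157, had a change of 0.07 ± 0.23, and of -0.11 ± 0.17 without NCD replicate 1. Differences between the chains' changes were not tested.

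Plg, the precursor of the fibrin-cutting enzyme plasmin, measured 4703, 2551 and 2939 CPM in NCD and 1800, 2060 and 1866 in HFD. It was one of the 6 genes for which NCD replicate 1 was the highest NCD library, and the groups did not overlap with or without it. The change was -0.81 ± 0.26, a level 1.75-fold lower (edgeR adjusted p 0.0898), and without NCD replicate 1 Plg fell by 0.52 ± 0.16 (edgeR adjusted p 0.0402). Serpinc1, the antithrombin gene, lay at 1452, 1878 and 2031 CPM in NCD and 1825, 1773 and 1699 in HFD, a change of 0.00 ± 0.20, and of -0.14 ± 0.15 without NCD replicate 1. Kng1, at 1106, 2276 and 2672 CPM against 2166, 2161 and 2264, had a change of 0.14 ± 0.31. Without NCD replicate 1 the change of Kng1 was -0.17 ± 0.15, and both remaining NCD libraries lay above all HFD libraries. Changes of the genes without values above lay between -0.74 for Klkb1, the plasma kallikrein gene, and 0.71 for Proc, the protein C gene, and none was called without NCD replicate 1. Klkb1 measured 568, 290 and 401 CPM in NCD and 235, 239 and 266 in HFD, without overlap. Its edgeR adjusted p was 0.0993, and without NCD replicate 1 its change was -0.48 ± 0.17 (edgeR adjusted p 0.0729).

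**Figure D3:**
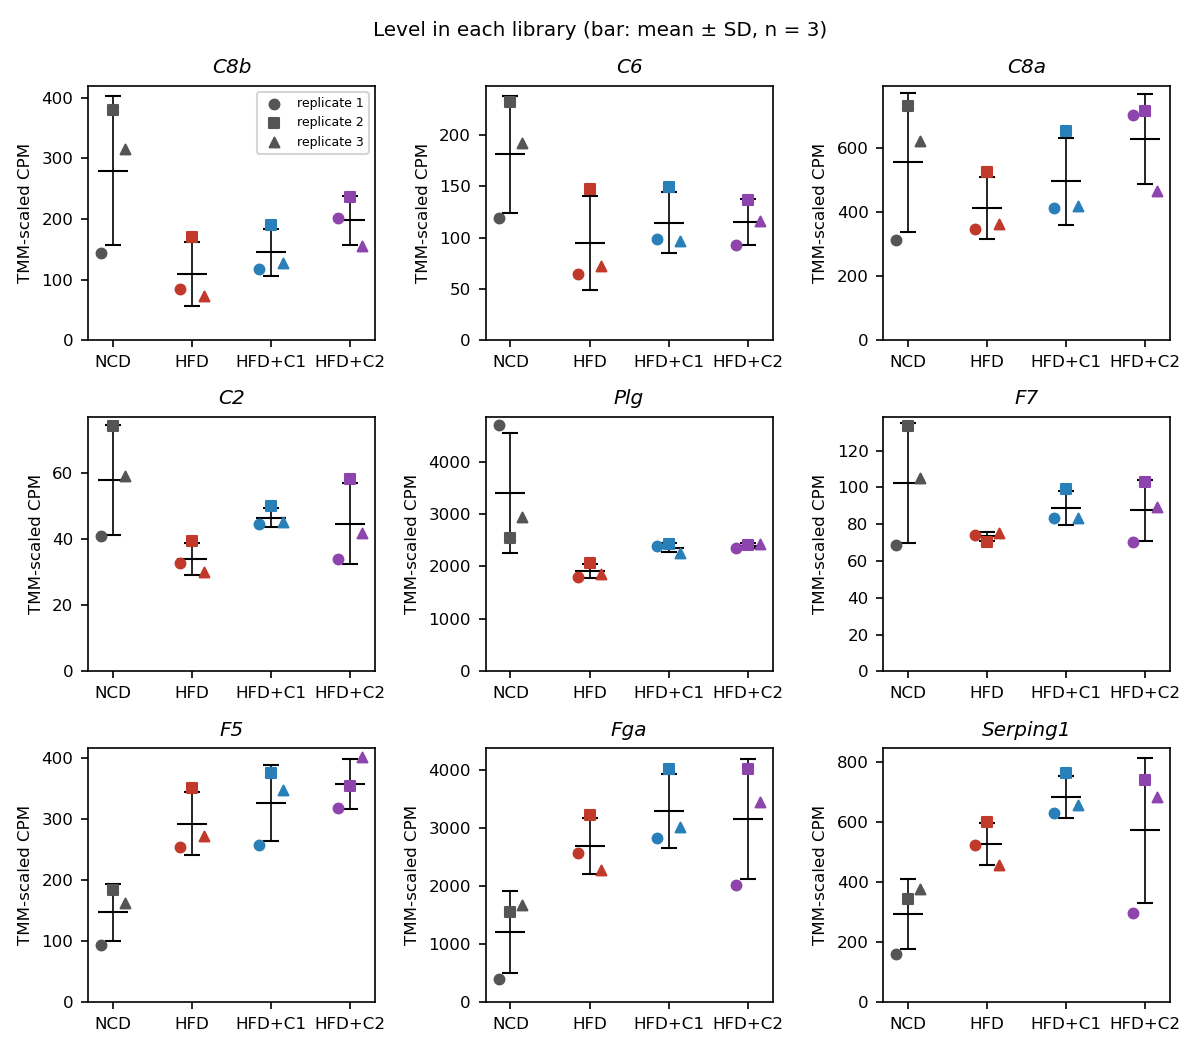
TMM-scaled CPM of the 9 genes called for the diet without NCD replicate 1, in each library of the 4 groups; marker shapes are replicates and bars show mean ± SD (n = 3). In C8b, NCD replicate 1 (144) sits below HFD replicate 2 (170), and in F5 and Fga all HFD points lie above all NCD points.

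**Figure D4:**
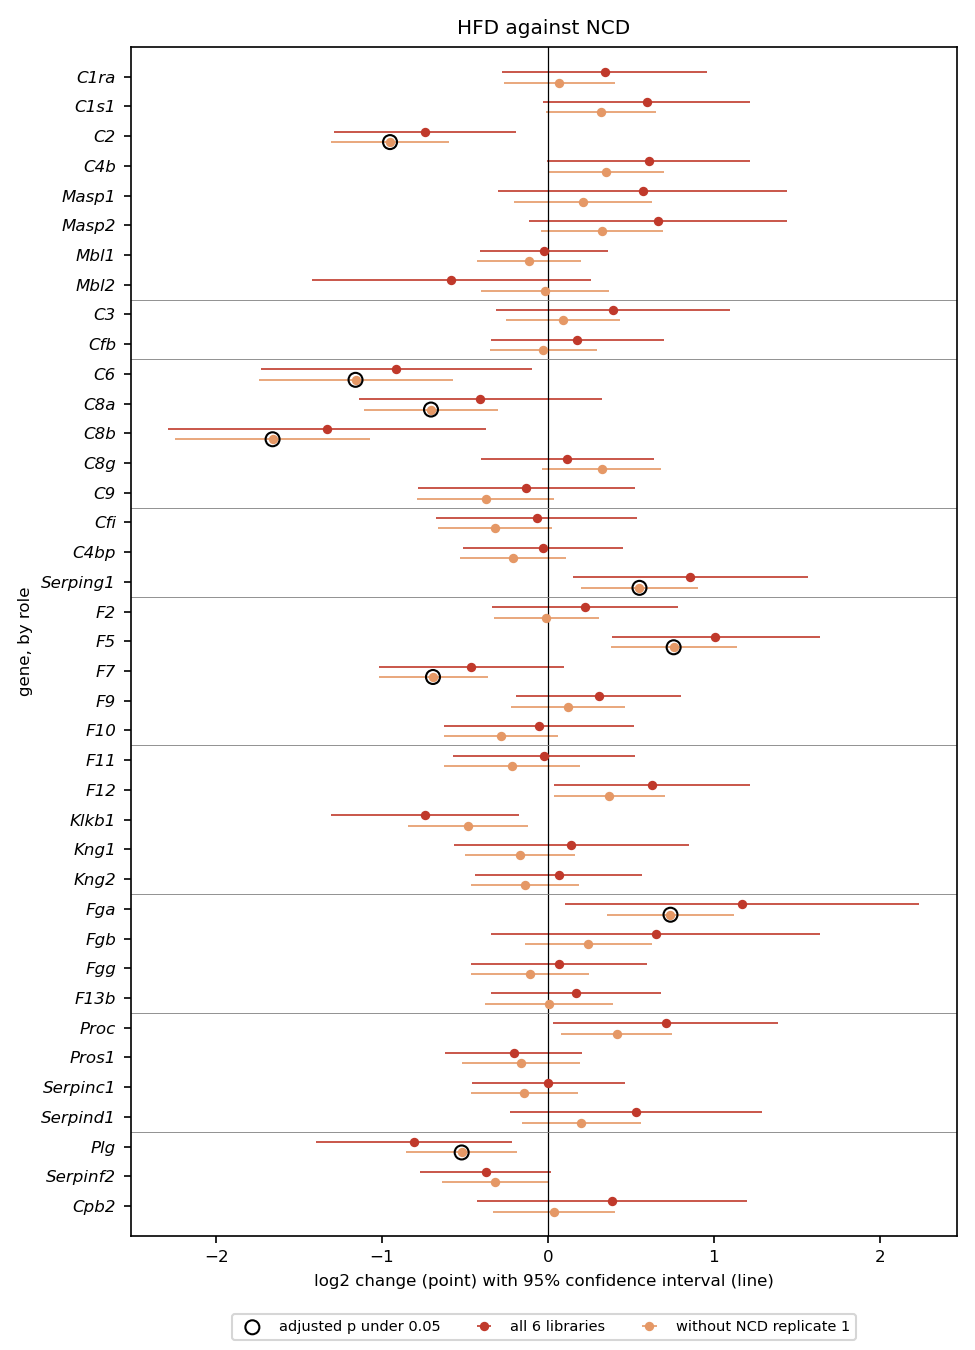
Log2 change of HFD against NCD for the 39 genes, with 95% confidence intervals as lines, for all 6 libraries (red) and without NCD replicate 1 (orange). Black rings mark an adjusted p under 0.05, which 0 genes reached with all libraries and 9 without NCD replicate 1.

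The next comparison sets HFD+C1 against HFD. The differences were small and nearly all pointed up: 36 of 39 genes (92.3%) had a change above 0, against 51.2% of all genes, with a median of 0.26 against 0.0063. By edgeR with Benjamini-Hochberg adjustment 0 of the 39 were called, where 0.0524% of 13358 genes were, and DESeq2 and limma also called 0. At an unadjusted p under 0.05 there were 11, all higher, which is 28.2% of the genes against 7.75% of all genes. This count was 4 without HFD replicate 1, 3 without HFD replicate 3, 4 without HFD+C1 replicate 2, 19 without HFD replicate 2, 0 in 1 edgeR fit of all 12 libraries and 10 in that fit without NCD replicate 1 and HFD+C2 replicate 1. The median was 0.16 without HFD+C1 replicate 2, with 31 genes above 0. Groups did not overlap for 12 genes, 30.8% against 12.4% of all genes; all 12 were higher, against 6.36% of all genes. Each change lay between -0.04 and 0.45 on the log2 scale. Summed Kupffer cell markers were 241 to 317 CPM in HFD+C1 and 148 to 199 in HFD, and all 8 markers had a change above 0. Hepatocyte markers summed to 101043 to 108351 CPM against 89367 to 103817, with 6 of 8 above 0, and without Alb to 31674 to 35610 against 30818 to 35791, which overlap. Erythroid markers summed to 188 to 302 CPM against 259 to 389, with 0 of 5 above 0, a median of -0.60 and 3 of 5 at an unadjusted p under 0.05. Their part in the result was not tested.

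The C2 gene had the largest change, at 44.4, 49.9 and 45.2 CPM in HFD+C1 against 32.8, 39.4 and 29.9 in HFD. All HFD+C1 libraries lay above all HFD libraries. The change was 0.45 ± 0.13 (95% interval 0.18 to 0.72; edgeR unadjusted p 0.00335, adjusted p 0.334). All 3 complement regulators were higher without overlap: Cfi, for one, measured 726, 822 and 690 CPM against 509, 631 and 527, a change of 0.42 ± 0.13 (edgeR adjusted p 0.375). C4b, at 927, 1108 and 973 CPM against 812, 733 and 761, had a change of 0.38 ± 0.12 (edgeR adjusted p 0.403), also without overlap. C8b, at 117, 190 and 128 CPM, had a change of 0.40 ± 0.26 with overlapping groups. It was called only in 1 alternative, without HFD replicate 2 (0.87, edgeR adjusted p 0.0413), the library with the highest HFD level of C8b.

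Of the genes with the highest CPM in their role, Plg measured 2396, 2420 and 2256 CPM in HFD+C1 against 1800, 2060 and 1866 in HFD, a change of 0.30 ± 0.12 without overlap. Kng1, at 2716, 2793 and 2404 CPM, had a change of 0.26 ± 0.12, again without overlap. Fgb, at 4756, 6629 and 5260 CPM, had a change of 0.29 ± 0.16, and its HFD+C1 range overlapped that of HFD. Serpinc1 (0.19 ± 0.11) and F2 (0.20 ± 0.11) did not overlap, and C3 (0.19 ± 0.16) did. The 3 genes with a change below 0 were Mbl1, a mannose-binding lectin gene (-0.04 ± 0.11), C8g (-0.04 ± 0.12) and Masp2, the protease gene that cuts C4 in the lectin pathway (-0.02 ± 0.14).

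In HFD+C2 against HFD, 35 of 39 genes (89.7%) had a change above 0, against 52.2% of all genes, with a median of 0.23 against 0.016. By edgeR with Benjamini-Hochberg adjustment 0 of the 39 were called, where 0.0222% of 13503 genes were, and DESeq2 and limma also called 0. At an unadjusted p under 0.05 there were 8, all higher, 20.5% of the genes against 6.89% of all genes. Groups did not overlap for 10 genes, 25.6% against 13.6% of all genes; all 10 were higher, against 7.01% of all genes. Without HFD+C2 replicate 1, edgeR called 0 of the 39 genes and 0.199% of all genes. In that fit 20 of the 39 (51.3%) passed an unadjusted p under 0.05, against 11.1% of all genes. Groups then did not overlap for 25 higher and 2 lower genes, where 14.1% and 13.2% of all genes did so, and the median was 0.34. The count of 8 at an unadjusted p became 0 without HFD replicate 1 or HFD replicate 3, 1 without HFD+C2 replicate 2, 4 with total-count scaling, 3 in 1 edgeR fit of all 12 libraries and 19 in that fit without NCD replicate 1 and HFD+C2 replicate 1. Summed Kupffer cell markers were 195 to 428 CPM in HFD+C2, highest in replicate 1, with 8 of 8 above 0, and hepatocyte markers were 82920 to 149160, lowest there, with 5 of 8 above 0. Their part in the result was not tested.

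The 5 terminal complement genes had a median change of 0.59, and their groups overlapped in all 5. C8g, at 0.03 ± 0.23, had a change of -0.22 ± 0.15 without HFD+C2 replicate 1, where both remaining libraries lay below all HFD libraries. C8b measured 202, 237 and 156 CPM in HFD+C2 against 85.3, 170 and 73.5 in HFD, where HFD replicate 2 passed the lowest HFD+C2 library. Its change was 0.85 ± 0.31 (95% interval 0.14 to 1.55; edgeR adjusted p 0.695), and 0.84 without HFD+C2 replicate 1. C8a, at 703, 715 and 465 CPM against 348, 525 and 364, had a change of 0.60 ± 0.24 (edgeR adjusted p 0.695). The mean level of C8b was 198 CPM in HFD+C2, 110 in HFD and 280 in NCD.

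Fgb measured 8383, 8031 and 5844 CPM in HFD+C2 against 4270, 5517 and 3827 in HFD, without overlap. Its change was 0.70 ± 0.25 (edgeR adjusted p 0.695), the second largest of the 39 genes. Fga, at 2016, 4014 and 3453 CPM, was low in HFD+C2 replicate 1 where Fgb was highest, and had a change of 0.22 ± 0.29. Without that library its change was 0.47 ± 0.17, with groups that did not overlap (edgeR adjusted p 0.386). The genes with the lowest changes also turned on that library. F12, the contact factor XII gene, measured 170, 341 and 360 CPM against 379, 332 and 311, a change of -0.24 ± 0.27 that became 0.04 without replicate 1. C1ra, a C1 protease gene, at 96.4, 180 and 212 CPM, had a change of -0.05 ± 0.27, and of 0.22 without it. Serpinc1, at 1255, 1997 and 1933 CPM, had a change of -0.04 ± 0.23, and of 0.15 without it. Of the other genes with the highest CPM in their role, Cfi had a change of 0.49 ± 0.21, Plg of 0.32 ± 0.19, C3 of 0.38 ± 0.27, Kng1 of 0.22 ± 0.19, F2 of 0.12 ± 0.21 and C4b of 0.07 ± 0.19.

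**Figure D5:**
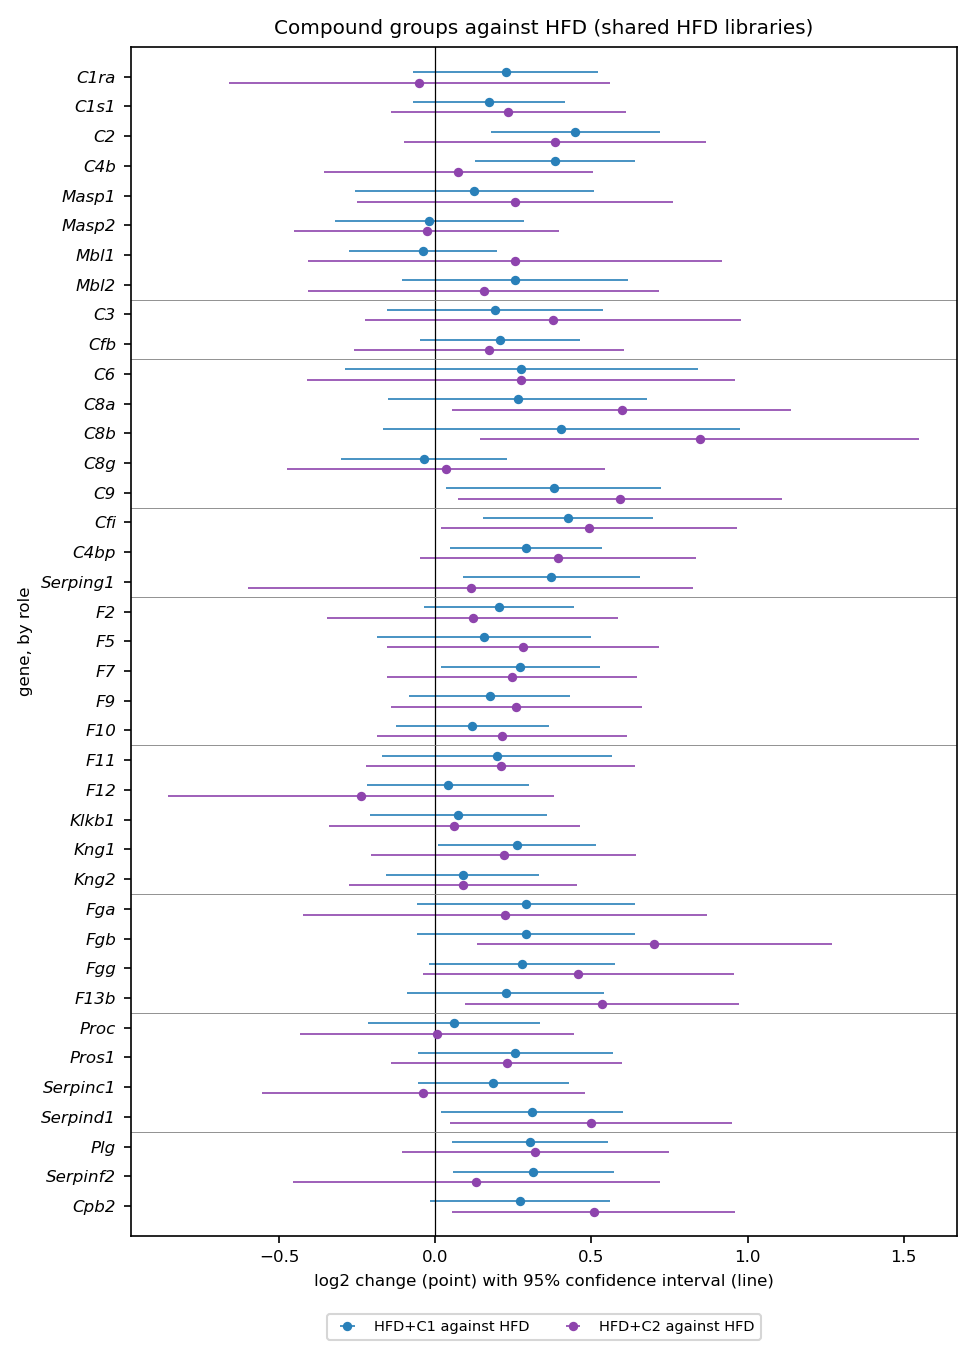
Log2 change against HFD under compound C1 (blue) and compound C2 (purple) for the 39 genes, with 95% confidence intervals; the same 3 HFD libraries enter both. Points lie above 0 for 36 genes under C1 and 35 under C2, and the C2 intervals are the wider.

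Both compound comparisons use the same HFD libraries, as does the diet comparison, so values are given side by side and no likeness between them is drawn. For the C2 gene the changes were 0.45 under compound C1 and 0.38 under compound C2, for Cfi 0.42 and 0.49, and for C8b 0.40 and 0.85. The genes that fell on the diet without NCD replicate 1 (C8b, C6, the C2 gene, C8a, F7, Plg) had changes of 0.26 to 0.45 under C1 and 0.25 to 0.85 under C2, none called. The genes that rose there had changes of 0.16 (F5), 0.29 (Fga) and 0.37 (Serping1) under C1 and 0.28, 0.22 and 0.11 under C2, likewise not called. The values under C2 without its replicate 1 were 0.36, 0.47 and 0.43, not called either. The genes that fell were picked by low levels in these same HFD libraries, which by itself favours changes above 0 against them. Of all 39 genes, 36 had a change above 0 under C1 and 35 under C2.

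The compounds were compared directly at their matched dose and time, HFD+C2 against HFD+C1, gene by gene for all 39 with p-values adjusted over all genes. By edgeR with Benjamini-Hochberg adjustment 0 of the 39 genes and 0% of 13229 genes were called, and 0 of the 39 passed an unadjusted p under 0.05, against 4.6% of all genes. DESeq2 and limma called 0 of the 39. The difference was above 0 for 23 of the 39 (59%), against 51.7% of all genes. Its median was 0.023, against 0.012 for all genes, and it turned to -0.046 with total-count scaling. Without HFD+C2 replicate 1, edgeR called 0 of the 39 and 0.00758% of all genes. The difference was then above 0 for 30 of the 39 (76.9%), against 49.6% of all genes, with a median of 0.10. In that fit 1 gene passed an unadjusted p under 0.05 (2.56%, against 6.33% of all genes). The largest differences were 0.45 for C8b (95% interval -0.08 to 0.98), 0.42 for Fgb (-0.13 to 0.97) and 0.35 for C8a (-0.23 to 0.92), all higher under compound C2. The lowest were -0.30 for C4b (-0.73 to 0.13), -0.27 for F12 (-0.88 to 0.34) and -0.27 for C1ra (-0.90 to 0.36). Without HFD+C2 replicate 1, F12 and C1ra were both at 0.00. These intervals leave room for differences in either direction, and a p that misses the threshold does not show that the compounds act alike. Groups failed to overlap for 1 gene, 2.56% of the 39 against 12% of all genes: F13b, the factor XIII B subunit gene, named after its values were seen, at 221, 181 and 192 CPM in HFD+C2 against 147, 169 and 161 in HFD+C1 (0.32, interval -0.04 to 0.68). Without HFD+C2 replicate 1 this count was 7 (17.9%), against 23% of all genes, with 4 higher and 3 lower.

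The other genes of both systems were called for the diet in small numbers, to be read against the 6.03% of all genes called. Of 29 other complement genes tested, 2 rose, Cfd, the alternative-pathway protease adipsin (edgeR adjusted p 0.000441), and Colec11, a lectin that starts the lectin pathway (0.99, edgeR adjusted p 0.0294). Cfd had 4, 2 and 16 reads in NCD and 737, 564 and 517 in HFD, so it passed the filter at a mean of 10 counts only through HFD, and its fitted change of 5.40 rests on few NCD reads. Cfd is also an adipocyte marker; the 6 markers of that list summed to 1747 to 3008 CPM in NCD and 2847 to 3214 in HFD, nearly all of it Car3, at 1746 to 3007 and 2822 to 3194. Adipoq was at 0 in all NCD libraries and at 0, 0 and 0.041 CPM in HFD, Plin1 was at 0.78, 0 and 0.37 CPM in NCD and 0.033, 0 and 0 in HFD, and Lep was at 0 in all HFD libraries. Colec11 is also a stellate cell marker, and of the other markers of that list Col1a1 (2.58, edgeR adjusted p 0.00927) and Col3a1 (1.19, edgeR adjusted p 0.0244) rose; their part in the value of Colec11 was not tested. Of 26 other coagulation and fibrinolysis genes, 2 rose and 1 fell. Among them Hrg, the histidine-rich glycoprotein gene, rose by 1.21 (edgeR adjusted p 0.046), and Serpine2, a thrombin-inhibiting serpin gene, fell by 2.22 (edgeR adjusted p 0.0322).

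Of 22 liver transcription factor genes tested, 1 was called in the diet comparison, Ppara, the fatty-acid sensor, which rose by 1.13 (edgeR adjusted p 0.0419). Of 21 interleukin-6 and STAT3 signalling genes, Lcn2 (3.75, edgeR adjusted p 0.0106) and Saa2 (1.40, edgeR adjusted p 0.046) rose and Lifr, a receptor gene of the interleukin-6 family, fell by 1.37 (edgeR adjusted p 0.0326). Without NCD replicate 1 the numbers called were 5 of 29 other complement genes, 5 of 25 other coagulation genes, 1 of 21 transcription factors and 5 of 21 interleukin-6 and STAT3 genes, where 13.7% of all genes were. In the 3 comparisons with a compound, edgeR called 0 genes of these 4 lists with all libraries. Without HFD+C2 replicate 1 it called 1, the transcription factor gene Foxa2, lower under compound C2. At an unadjusted p under 0.05, HFD+C1 against HFD gave 8 of 31 other complement genes, 4 of 25 other coagulation genes, 4 of 21 transcription factors and 6 of 21 interleukin-6 and STAT3 genes, where 7.75% of all genes passed. HFD+C2 against HFD gave 8 of 30, 2 of 25, 6 of 21 and 3 of 21, where 6.89% of all genes passed, and 6 of 30, 7 of 25, 8 of 21 and 6 of 21 without HFD+C2 replicate 1, where 11.1% did. DESeq2 and limma counts were not taken for these lists.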

How the data were processed

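Liver RNA of 12 mice in 4 labelled groups of 3 was sequenced by the authors. Per the submitters' processing notes, Trimmomatic 0.39, STAR 2.7, DESeq2 and mm10 were used, and strand use and the counting program are not given in the sources used here. The authors deposited 3 tables of read counts per gene, raw although named normalized; HFD columns were the same in all 3 (0 cells differed). The 4 entries that name no gene were kept out, 27.3% to 58.2% of a library's reads.

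Counts were tested with edgeR 4.0.16 (R 4.3.3; quasi-likelihood, TMM, genes averaging 10 counts or more in the 6 libraries compared, Benjamini-Hochberg, call under 0.05), each comparison on its own 6 libraries, with 95% intervals from the fit. Levels are CPM scaled by TMM over all 12 libraries. Per-kb levels used the longest coding transcript in GENCODE (GRCm38), and promoters and gene order came from RefSeq (GRCm38.p6). Groups of 3 are labelled as biological replicates, and p-values measure the spread between them. The lowest p an exact permutation test of 3 against 3 allows is 0.1, so none was used.

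The 39 genes, the lists and the tests were chosen with earlier results of these data known. Named genes were those called, the 3 highest and 3 lowest changes of each comparison and the gene with the highest mean CPM (not divided by length) of each role; the 9 genes called without NCD replicate 1, all fibrinogen chains, F13b, the ends of the per-kb order, Klkb1 and Proc were added after their values were seen. Some items of the other gene lists are not reported here. Alternatives were other scalings, no filter or a mean of 50 counts, a replicate block, DESeq2 1.42.0, limma 3.58.1 (prior count 1), 1 fit of all libraries, and leaving out each library. A fit without NCD replicate 1 and HFD+C2 replicate 1 was added after the data were seen. On simulated counts, edgeR recovered 7% of changes of 1 on the log2 scale and 72% of changes of 2 for the diet (13864 genes), 73% and 97% for compound C1 (13358 genes), 34% and 93% for compound C2 (13503 genes) and 39% and 88% between compounds (13229 genes). Each simulation changed 100 genes at each size, drawn at random over all levels. In the data, 28.9% of genes had an unadjusted edgeR p under 0.05 for the diet, so recovery for the 39 genes may differ.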

Additional observations from a re-analysis of the deposited data

Results flagged for a closer look

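Reads assigned to no gene made up 47.1% of HFD+C2 replicate 1, above the 31.9% to 33.0% of the HFD libraries, a signal in data that no comparison uses. The share was higher in NCD replicate 1, at 58.2%, and the other 2 HFD+C2 libraries, at 27.4% and 27.9%, and the HFD+C1 libraries, at 27.3% to 28.7%, lay below the HFD range. HFD+C2 replicate 1 was the lowest of its group for 24 of the 39 genes and the highest for 9. Changes of 4 of the 39 genes from the other HFD+C2 libraries exceeded 2-fold there, 10.3% against 12% of all genes. The part of unassigned reads in these values was not tested.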

How the results depend on the processing

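Of the 39 genes, the number called for the diet was 0 with all libraries, and 0 with median-ratio scaling, limma or a filter at 50 counts. It was 1 with total-count scaling (the C2 gene; 7.97% of all genes called), 10 with no filter (12.7% of 35374 genes called), 6 with DESeq2 (16.6%), 5 in 1 fit of all libraries (17.4%) and 9 in that fit without NCD replicate 1 and HFD+C2 replicate 1 (17.7%); these 9 were the same genes as without NCD replicate 1 alone. Leaving out 1 library gave 0 to 9, with 9 without NCD replicate 1 and 2 without NCD replicate 2 (F5, Klkb1; 8.89% of all genes called). For compound C1 it gave 0 to 1, the latter C8b without HFD replicate 2, where 0.767% of all genes were called. For compound C2, 1 gene (C8b) was called with no filter, where 0.531% of all genes were.

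Among all genes, the diet count of 836 of 13864 (359 higher, 477 lower) became 4493 with no filter, 524 with a filter at 50 counts, 2298 with DESeq2, 556 with limma, 2418 in 1 fit of all libraries, 2451 in that fit without the 2 libraries, and 23 to 1838 when 1 library was left out. Total-count scaling gave 241 higher and 864 lower. For compound C1, 7 became 206 with no filter, 72 with DESeq2, 0 in both fits of all libraries and 2 to 102 with 1 library left out. For compound C2, 3 became 152, 35, 0 (15 without the 2 libraries) and 0 to 27. Between compounds, 0 became 162 with no filter, 3 with DESeq2, 1 in the fit without the 2 libraries and 0 to 1 with 1 library left out. The median over the 39 genes for compound C2 was 0.34 in the fit without the 2 libraries and 0.15 to 0.34 with 1 library left out.

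Some values changed sign. Without NCD replicate 1, 6 of the 39 diet changes turned (Cfb, F2, Kng1, Kng2, Fgg, Serpinc1). Without HFD+C2 replicate 1, 7 changes under compound C2 turned (C1ra, Masp2, Mbl1, Mbl2, C8g, F12, Serpinc1), as did 15 differences between compounds. For compound C1, Masp2 became 0.00079 with total-count scaling; with 1 library left out it ran from -0.13 to 0.095, reaching 0.0065 and 0.057 when HFD lost replicate 1 or 2 and 0.095 when HFD+C1 lost replicate 1. C8g ran from -0.12 to 0.03, above 0 without HFD replicate 1 (0.03) or HFD+C1 replicate 3 (0.028). For compound C2, C1ra ran from -0.28 to 0.22, with 0.037 without HFD replicate 2, and F12 from -0.42 to 0.037; without HFD+C2 replicate 1, C1ra became 0.22, F12 0.037 and Serpinc1 0.15, and in the fit without the 2 libraries 0.22, 0.041 and 0.15. Between compounds, F12 ran from -0.45 to 2.7e-05, the latter without HFD+C2 replicate 1. The cause was not tested.

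With the replicate number as a block, genes called numbered 483 for the diet, 36 for compound C1, 3 for compound C2 and 0 between compounds; of the 39 genes 1 was called for the diet (F5) and 0 elsewhere. Deviations of same-numbered libraries correlated at -0.028, 0.33 and -0.16 for the diet, so the numbers were not taken to pair the mice. The limits are 3 libraries a group and a diet test that recovers few changes of 2-fold size, with intervals that rest on the spread between those few libraries.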

Other observations

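The library numbered 2 held the highest value of its group for over 19 of the 39 genes in all 4 groups: 20 in NCD, 26 in HFD, 31 in HFD+C1 and 24 in HFD+C2. The check above did not lead to pairing the mice by number, but with 3 libraries a group it cannot show that same-numbered libraries are unrelated. Deviations of the libraries numbered 2 correlated at 0.33 for HFD against NCD and 0.16 for HFD+C1 against HFD. They correlated at -0.037 for HFD+C2 against HFD and -0.034 between compounds. The pattern of highest values was seen in the data and not tested.

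The C1q chain genes, which encode the recognition protein of the classical pathway and are made by macrophages rather than hepatocytes, showed larger changes under compound C1 than any of the 39 genes. C1qa measured 40.1 ± 5.68 CPM (SD, n = 3) in HFD+C1 against 25.3 ± 4.36 in HFD, a change of 0.67 ± 0.15 (edgeR adjusted p 0.191). C1qb had a change of 0.55 ± 0.14 and C1qc of 0.62 ± 0.17, also not called. All 8 Kupffer cell markers had changes above 0 in the same comparison, with a median of 0.71. These genes were picked after their values were seen.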
